A study of Mus musculus with 23 samples.

Results

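The genes described here encode the proteins of the mitochondrial ribosome. They were chosen by symbol, as every feature named Mrpl or Mrps followed by digits and at most 1 letter. This took 77 of the 43154 features listed per library, 48 Mrpl symbols of the large subunit and 29 Mrps symbols of the small subunit. All 77 passed the level filter of at least 1 FPKM (fragments scaled to transcript length and library size) in at least 3 of the 23 libraries. They also had at least 1 FPKM in every one of the 23, and the lowest single value was 6.28 FPKM, for Mrpl19, so no member lay near the filter. Symbols do not always follow the ribosome's structure. Mrps18a and Mrps30 sit in the large subunit, and Mrps36 is now known as a subunit of the 2-oxoglutarate dehydrogenase complex. The counts below follow the symbols.

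The libraries were RNA sequencing of hearts from C57BL/6 mice. CnATg mice carry a calcineurin A transgene under a myosin heavy chain promoter, which drives it in heart muscle cells, and WT mice do not. Treatment was vehicle or JIB-04, which inhibits the Jumonji family of histone demethylases, at 50 mg/kg on 3 days of each week. At day 45, when CnATg treatment had started in week 4, both genotypes were sampled with vehicle and with JIB-04, in 4 groups of 3 libraries. At day 77, with a start in week 5, the groups were WT JIB-04 (3 libraries), CnATg vehicle (4) and CnATg JIB-04 (4). The start week of the WT JIB-04 mice is not given, and age and start week cannot be told apart. The series' own text gives WT mice no drug, but 6 WT samples are labelled JIB-04, and the sample labels were followed. These 6 are numbered apart from all other samples of the series, and whether they were prepared or sequenced apart is not given. They supply the WT libraries of each comparison of genotypes under JIB-04 and the JIB-04 libraries of the drug comparison in WT. A difference between them and the other samples cannot be told apart from those effects. No WT vehicle group of day 77 was analysed here. The labels do not say outright that each library is a separate mouse, so p-values measure the spread between libraries.

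The mitochondrial ribosome translates the few proteins that the mitochondrial genome encodes, all of them subunits of the respiratory chain and the ATP synthase. Its ribosomal RNAs, mt-Rnr1 and mt-Rnr2, are transcribed inside the organelle, while every protein of its subunits is encoded in the nucleus, made on cytosolic ribosomes and imported. Many of these proteins have counterparts in bacterial ribosomes and others exist in mitochondria alone. Heart muscle is rich in mitochondria and depends on this translation to keep its respiratory chain supplied. Counting Mrps18a and Mrps18b, extra copies of one bacterial-type protein, with the second kind, 29 large-subunit and 16 small-subunit symbols are of bacterial type, and 19 and 12 are mitochondrial additions, with Mrps36 in neither.

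Ppp3ca, the calcineurin A gene, matched the genotype label in every library, at 23.6 to 29.002 FPKM in the 9 WT and 1415 to 1987 FPKM in the 14 CnATg libraries. The library of WT JIB-04 day 45 replicate 2 stood apart. It had the lowest relative depth, 0.62 of the mean library in a range from 0.62 to 1.26, and mt-Rnr1 and mt-Rnr2 at 6892 and 6548 FPKM. By genotype, relative depth was 0.62 to 0.96 in WT and 0.95 to 1.26 in CnATg libraries. The part of depth in the results below was not tested. Cell type markers differed with genotype. The summed FPKM of 10 heart muscle markers was 20061 to 23367 in WT and 16116 to 18744 in CnATg, that of 12 endothelial markers 430 to 522 and 247 to 400, and that of 10 fibroblast markers 392 to 489 and 510 to 681. That of 9 smooth muscle and pericyte markers was 270 to 409 in WT and 375 to 672 in CnATg, without overlap at either age. The sums of 8 macrophage markers, 180 to 312 and 166 to 325, and of 7 lymphocyte markers, 1.39 to 5.53 and 0.893 to 3.32, overlapped between genotypes. That of 6 erythroid markers ranged from 1223 to 5085 at day 45 and from 4237 to 28307 at day 77. None of the 10 heart muscle markers was under 0.1 FPKM. Of 8 adipocyte markers, Lep, Plin1 and Ucp1 stayed under 0.1 FPKM, while the sum of all 8 was 190 to 290 FPKM. In such whole-heart samples fewer cells of a type and less RNA per cell cannot be told apart, and the part that these cell markers had in the results below was not tested.

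Levels differed widely within each subunit. FPKM is scaled to length, so levels can be set side by side between genes. Over all libraries the highest means of the large subunit were those of Mrpl33 (236 FPKM), Mrpl42 (200.4 FPKM) and Mrpl30 (138 FPKM), and the lowest those of Mrpl19 (8.34 FPKM), Mrpl35 (9.08 FPKM) and Mrpl1 (10.6 FPKM). In the small subunit Mrps21 (257 FPKM), Mrps23 (203 FPKM) and Mrps36 (96.7 FPKM) were highest, and Mrps22 (16.01 FPKM), Mrps2 (17.6 FPKM) and Mrps11 (19.9 FPKM) lowest. The order differed between genotypes. In the 3 WT groups Mrpl42 (244 to 259 FPKM) stood above Mrpl33 (189 to 205 FPKM), and in the 4 CnATg groups Mrpl33 (248 to 266 FPKM) above Mrpl42 (162 to 174 FPKM). Mrps36 was the third of the small subunit in each WT group (116 to 119 FPKM), and Mrps34 in each CnATg group (87.5 to 98.8 FPKM), where its libraries overlapped those of Mrps36 at day 77. In no group did the libraries of Mrpl33 and Mrpl42 overlap. A ribosome holds most of these proteins in 1 copy, yet the mRNA levels of Mrpl33 and Mrpl19 were far apart in every group. Mrpl33 averaged between 189 ± 17 (SD, n = 3, WT JIB-04 day 45) and 266 ± 24 FPKM (n = 3, CnATg vehicle day 45), and Mrpl19 between 7.41 ± 1.1 (n = 4, CnATg vehicle day 77) and 8.98 ± 1.4 FPKM (n = 3, CnATg vehicle day 45).

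Summed over each subunit, the levels moved little. The 48 large-subunit genes added up to 3309, 2837 and 3185 FPKM in WT vehicle day 45 and to 2982, 2977 and 3097 FPKM in CnATg vehicle day 45. WT JIB-04 gave 3372, 3073 and 3155 FPKM at day 45 and 3296, 3405 and 3445 at day 77. CnATg JIB-04 gave 2875, 2865 and 2861 FPKM at day 45 and 2856, 2905, 2939 and 2655 at day 77, and CnATg vehicle day 77 gave 3053, 2876, 2989 and 3002. Under vehicle the groups overlapped, because WT vehicle replicate 2 lay below all 3 CnATg libraries, whereas under JIB-04 every CnATg library lay below every WT library of its age. The 29 small-subunit genes followed the same order, with group means of 1806 ± 189 FPKM in WT vehicle day 45 and between 1613 and 1890 FPKM elsewhere. The ratio of the large to the small sum stayed between 1.69 and 1.81 in all 23 libraries.

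**Figure D1:**
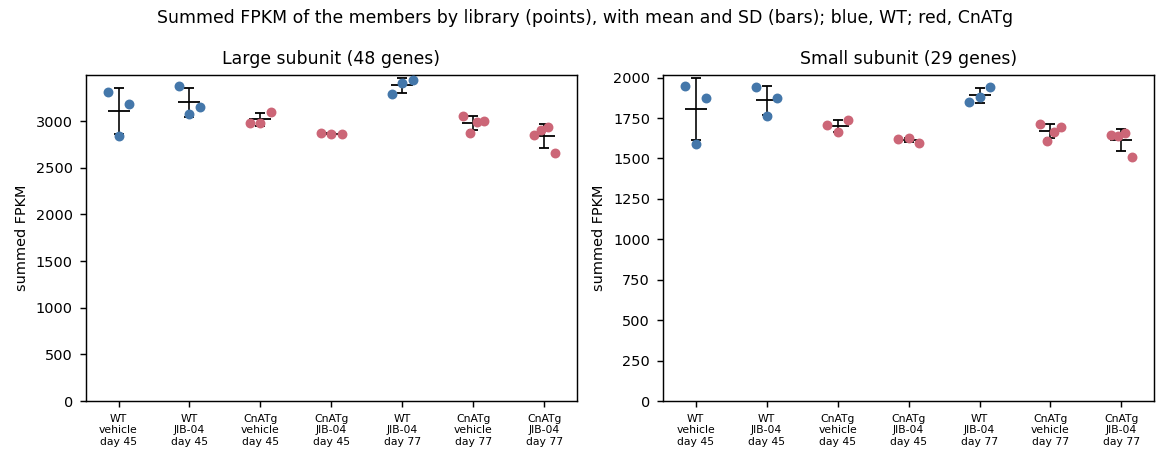
Summed FPKM of the 48 large-subunit genes and of the 29 small-subunit genes (y axis) in each library (points) of the 7 groups (x axis), with the group mean and SD as bars. The CnATg JIB-04 libraries, at 2655 to 2939 FPKM for the large subunit, lie below the WT JIB-04 libraries, at 3073 to 3445 FPKM, while WT vehicle replicate 2, at 2837 FPKM, lies among the CnATg libraries.

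The transgene's effect was measured 3 times in libraries that are not shared, under vehicle at day 45 and under JIB-04 at day 45 and at day 77. Both day-45 comparisons came from a fit of the same 12 libraries, so their p-values use the same spread. With vehicle at day 45, 8 large-subunit genes were higher and 10 lower in CnATg, and 3 small-subunit genes were higher and 8 lower (limma, Benjamini-Hochberg adjusted p under 0.05 over all features tested). Of all 13289 features tested, 39.2% were called, 23.3% higher and 15.9% lower, and the members' 29 of 77 was near that background. The median log2 difference was -0.02 for the large and -0.00 for the small subunit, beside 0.07 for all features. The ranges of the 2 groups were apart for 34 of the 77 members and for 49.6% of all features.

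The largest decrease of the large subunit was in Mrpl18 (chromosome 17, 12911349 to 12916345, GRCm38), whose bacterial counterpart binds the small ribosomal RNA of the large subunit. Its level was 113, 86.1 and 108 FPKM in WT vehicle and 69.3, 67.9 and 78.7 FPKM in CnATg vehicle. The groups did not overlap, and the log2 difference was -0.50 (SE 0.10, 0.708 times the WT level, limma adjusted p = 0.00254). The Mrpl18 gene overlaps Tcp1, and the kit keeps no strand, so reads from a stretch that both share cannot be told apart. The same limit holds for the other overlaps named below. Mrpl42 (chromosome 10, 95480806 to 95501927), a protein found in mitochondrial ribosomes alone, was at 249, 230 and 255 FPKM in WT and at 176, 165 and 180 FPKM in CnATg. Every CnATg library was far below the lowest WT library (log2 difference -0.49, SE 0.05, 95% interval -0.61 to -0.37, adjusted p = 3.02e-05). Mrpl30 was at 170, 147 and 149 FPKM in WT and 114, 118 and 120 FPKM in CnATg (-0.40, SE 0.06, adjusted p = 0.00052). Mrpl23, whose bacterial counterpart lines the exit of the peptide tunnel, went from 85.4, 75.1 and 76.5 to 61.6, 63.2 and 65.3 FPKM (-0.31, adjusted p = 0.0067). Mrpl39, which resembles a threonyl-tRNA synthetase, went from 26.2, 24.9 and 25.8 to 21.5, 20.6 and 21.9 FPKM (-0.26, adjusted p = 0.0167). In all 5 genes the CnATg libraries lay below the WT libraries, and the other 5 large-subunit genes called lower (Mrpl34, Mrpl55, Mrpl46, Mrpl45 and Mrpl37) differed by -0.24 to -0.21.

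Other large-subunit genes rose under the same comparison. Mrpl16 (chromosome 19, 11770415 to 11774944), whose bacterial counterpart helps to place tRNAs near the peptidyl transferase centre, was at 47.2, 47.2 and 48.6 FPKM in WT vehicle and at 67.0, 63.1 and 63.8 FPKM in CnATg vehicle. The spread within each group was small against the gap (log2 difference 0.43, SE 0.05, 1.35 times the WT level, adjusted p = 4.62e-05). Mrpl33 (chromosome 5, 31596935 to 31701972, overlapping Rbks) was at 212, 180 and 212 FPKM in WT and at 241, 290 and 266 FPKM in CnATg (0.40, SE 0.10, 1.32 times, adjusted p = 0.00627). Mrpl44, which has a fold of the ribonuclease III family, rose from 44.9, 37.9 and 42.0 to 53.0, 52.3 and 51.2 FPKM (0.32, adjusted p = 0.00403). Mrpl36 (0.28, adjusted p = 0.0315) and Mrpl50 (0.28, adjusted p = 0.014) followed, with WT libraries at 36.7 to 46.9 and 25.03 to 29.3 FPKM and CnATg libraries at 49.1 to 55.4 and 32.2 to 33.2 FPKM. Each of these 5 genes had its CnATg libraries above its WT libraries. Mrpl20, Mrpl54 and Mrpl38 made up the 8, at 0.25, 0.24 and 0.18.

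In the small subunit the largest decrease was in Mrps5 (chromosome 2, 127587222 to 127606829), whose bacterial counterpart takes part in accurate decoding. It was at 47.9, 43.6 and 48.6 FPKM in WT vehicle and at 31.7, 27.4 and 38.4 FPKM in CnATg vehicle (log2 difference -0.52, SE 0.10, 0.697 times, adjusted p = 0.00132). Mrps24 (chromosome 11, 5703983 to 5715680, overlapping Urgcp), the mitochondrial form of a protein at the head of the small subunit, went from 81.4, 65.8 and 72.2 to 58.3, 51.8 and 52.0 FPKM (-0.43, SE 0.08, adjusted p = 0.00124). Neither gene's groups overlapped. Mrps36 (-0.41, adjusted p = 0.0105), Mrps11 (-0.37, adjusted p = 0.00535), Mrps35 (-0.36, adjusted p = 0.00114) and Mrps21 (-0.35, adjusted p = 0.00162) were lower too. Mrps36 was at 133, 94.3 and 127 FPKM in WT and 85.6, 83.9 and 93.7 FPKM in CnATg, and Mrps21, the highest of the small subunit, at 313, 261 and 308 and at 228, 224 and 235 FPKM. Both groups of values were separated in each gene, for Mrps36 by little. In the opposite direction Mrps18b was at 34.3, 23.9 and 30.4 FPKM in WT and 42.6, 38.2 and 40.3 FPKM in CnATg (0.45, SE 0.10, 1.37 times, adjusted p = 0.00478). Mrps34, a mitochondrial addition, rose from 80.3, 65.3 and 77.8 to 94.9, 103 and 98.5 FPKM (0.41, adjusted p = 0.002; the gene overlaps Mapk8ip3 and Nme3). Mrps2 was at 17.1, 15.1 and 17.2 FPKM in WT and 19.9, 19.0 and 19.5 FPKM in CnATg (0.23, adjusted p = 0.0395), also without overlap.

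Some of these calls rested on single libraries. Mrpl39 lost its call without CnATg vehicle replicate 2 (adjusted p = 0.0566), Mrpl50 without WT vehicle replicate 2 (0.0513), Mrpl36 without CnATg vehicle replicates 2 or 3 or WT vehicle replicate 2 (0.0718, 0.105 and 0.0996), and Mrps2 without any library of the groups but WT vehicle replicate 1 (0.0503 to 0.134). The library of WT vehicle replicate 2 had the lowest sum of both subunits in WT. Without it, 3 large-subunit genes were higher and 15 lower (median -0.07), and 2 small-subunit genes were higher and 10 lower (median -0.09). The split of calls also moved with scaling. Median-ratio scaling gave 3 higher and 14 lower in the large subunit and 2 and 9 in the small, and quantile normalization 4 and 15, and 2 and 10. When genes of the mitochondrial genome and hemoglobin genes were removed and the remainder was brought to a common sum, 9 were higher and 2 lower in the large and 2 and 2 in the small subunit. That sum held non-coding RNAs, which took 27.9 to 42.5% of it in WT and 21.2 to 26.0% in CnATg libraries. The sum kept 7 nuclear copies of mitochondrial sequence. They took 18.3 to 27.7% of the sum in WT and 14.3 to 19.1% in CnATg libraries, so mitochondrial-type sequence was not all removed. Relative to its mean, the sum was 1.01 to 1.31 in WT and 0.91 to 0.97 in CnATg libraries. Scaling to nuclear protein-coding genes alone gave 7 higher and 12 lower, and 2 and 9. The genes called in the same direction under all 5 scalings were Mrpl18, Mrpl42, Mrps5 and Mrps24 (lower) and Mrpl16, Mrpl33, Mrpl44, Mrps18b and Mrps34 (higher). For 0 members did one scaling give a call opposite to another.

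**Figure D2:**
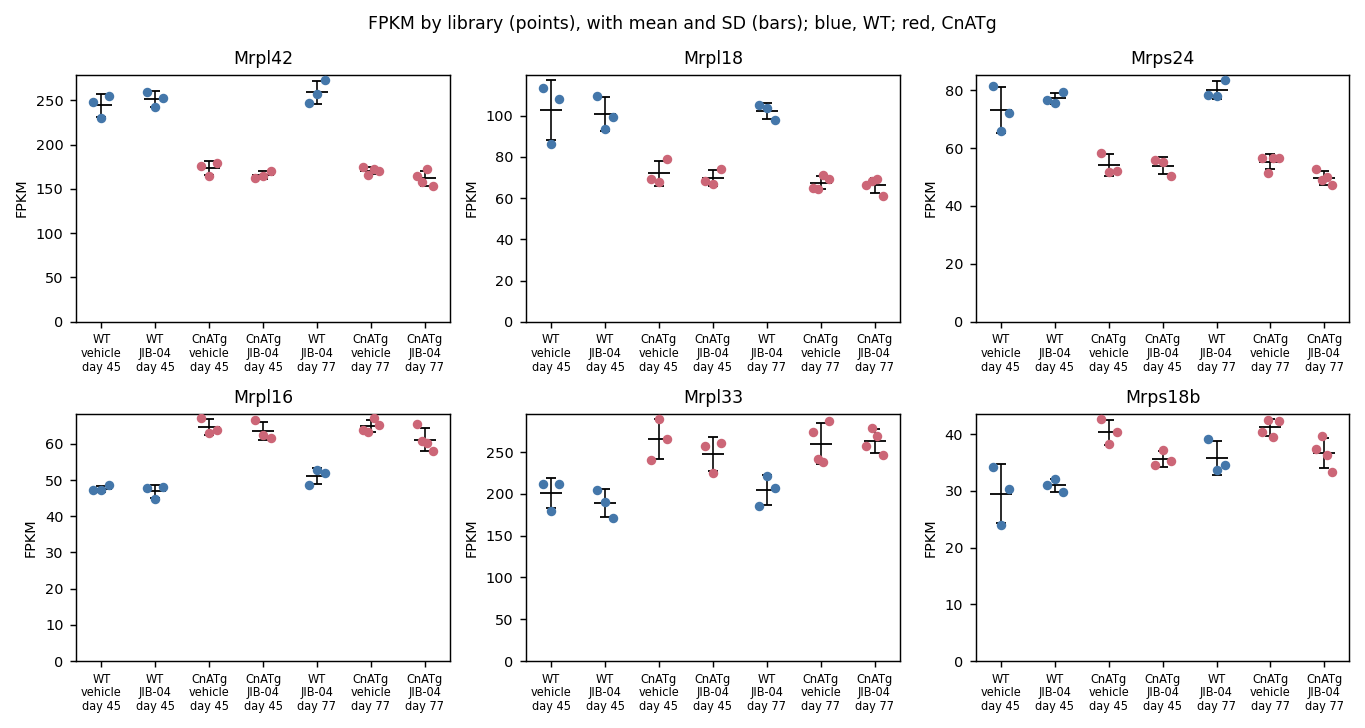
FPKM (y axis) of Mrpl42, Mrpl18, Mrps24, Mrpl16, Mrpl33 and Mrps18b in each library (points) of the 7 groups (x axis), with the group mean and SD as bars. Mrpl42 lies at 230 FPKM or more in the 9 WT libraries and at 180 FPKM or less in the 14 CnATg libraries, whereas Mrpl16 lies at 52.9 FPKM or less in WT and at 58.0 FPKM or more in CnATg libraries.

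Under JIB-04 at day 45, the called members were mostly lower in CnATg than in WT mice given the same drug, except that with mitochondrial-genome and hemoglobin genes removed most of those called were higher. In the large subunit 2 were higher and 19 lower (median -0.11), and in the small subunit 1 was higher and 9 lower (median -0.10). Of all features 38.6% were called, 20.5% higher and 18.1% lower, with a median of 0.02, and the groups' ranges were apart for 46 of 77 members, beside 50.5% of all features. Mrpl42 was at 260, 242 and 253 FPKM in WT JIB-04 and 162, 164 and 170 FPKM in CnATg JIB-04 (log2 difference -0.60, adjusted p = 6.8e-06). Mrpl30, at 169, 154 and 173 against 112, 117 and 111 FPKM, differed by -0.54 (adjusted p = 5.49e-05). Mrpl18 was at 109, 93.3 and 99.4 against 68.2, 66.6 and 74.1 FPKM (-0.52, adjusted p = 0.00188). The gap between the groups was wider than the spread within either for all 3 genes. Mrpl51 (-0.50, adjusted p = 0.0147) and Mrpl48 (-0.47, adjusted p = 0.0279) came next. Mrpl48 ranged from 53.0 to 84.2 FPKM among the 3 CnATg JIB-04 libraries and lost its call in 5 of the 6 fits that left out 1 library of the groups compared, while Mrpl51 lost it without CnATg JIB-04 replicate 1. Mrpl16, at 47.8, 44.7 and 48.1 against 66.5, 62.5 and 61.6 FPKM (0.43, adjusted p = 4.78e-05), and Mrpl33, at 205, 190 and 172 against 258, 225 and 261 FPKM (0.39, adjusted p = 0.00766), were the 2 that rose.

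In the small subunit, 5 genes stood out by size. Mrps35, a mitochondrial addition, was at 68.6, 68.5 and 67.4 FPKM in WT JIB-04 and 46.3, 49.4 and 43.8 FPKM in CnATg JIB-04 (-0.54, adjusted p = 6.04e-05). Mrps24, at 76.5, 75.6 and 79.3 against 56.0, 55.3 and 50.4 FPKM, differed by -0.51 (adjusted p = 0.000359), and Mrps21, at 330, 299 and 317 against 219, 228 and 225 FPKM, by -0.49 (adjusted p = 0.000165). No library of one group reached into the other. Mrps36 (-0.49, adjusted p = 0.00381) and Mrps5 (-0.39, adjusted p = 0.00783) fell as well, and Mrps34 was the 1 that rose (0.33, adjusted p = 0.00795), from 74.95, 68.0 and 77.7 to 97.5, 91.3 and 88.2 FPKM. Other scalings gave, for higher and lower, 2 and 20 of the large and 1 and 11 of the small subunit (median ratio), 2 and 22, and 1 and 12 (quantile), and 6 and 18, and 2 and 9 (nuclear protein-coding genes). With mitochondrial-genome and hemoglobin genes removed the counts were 11 and 1, and 3 and 1. Called in all 5 scalings were Mrpl42 and Mrps35 (lower) and Mrpl16, Mrpl33 and Mrps34 (higher). Without CnATg JIB-04 replicate 1 or replicate 3, 2 large-subunit genes were higher and 11 lower. Without WT JIB-04 replicate 2, 2 large-subunit genes were higher and 16 lower, and 1 small-subunit gene higher and 8 lower.

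At day 77 under JIB-04 the decreases were the most numerous of the 3 comparisons. Here too, with mitochondrial-genome and hemoglobin genes removed, most of the members called were higher. In the large subunit 2 genes were higher and 26 of 48 lower (median -0.22), and in the small subunit 1 was higher and 14 of 29 lower (median -0.21). Of 13212 features 42.1% were called, 19.9% higher and 22.1% lower, with a median of -0.01, and the groups' ranges were apart for 49 of 77 members, beside 45% of all features. Mrpl30 was at 199, 207 and 181 FPKM in WT JIB-04 and at 119, 119, 121 and 99.99 FPKM in CnATg JIB-04 (log2 difference -0.77, SE 0.07, 0.588 times, adjusted p = 9.29e-06). Mrpl42 was at 247, 257 and 273 against 164, 158, 173 and 153 FPKM (-0.67, SE 0.05, 0.627 times, adjusted p = 2.36e-06). Mrpl51, at 124, 115 and 131 against 84.0, 69.2, 87.8 and 77.9 FPKM, differed by -0.63 (adjusted p = 6.61e-05). No library of one genotype reached into the other in these 3 genes. Mrpl18 (-0.62, adjusted p = 8.53e-06) and Mrpl48 (-0.50, adjusted p = 0.000287) followed. Mrps24 led the small subunit, at 78.4, 78.0 and 83.6 against 52.7, 49.0, 49.9 and 47.1 FPKM (-0.68, SE 0.06, 0.626 times, adjusted p = 3.42e-06). Mrps35 (-0.62, adjusted p = 2.12e-05), Mrps36 (-0.55, adjusted p = 0.000211), Mrps21 (-0.50, adjusted p = 5.57e-06) and Mrps11 (-0.45, adjusted p = 0.0014; its gene overlaps Mrpl46) were next.

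Mrpl16 and Mrpl33 were again higher at day 77. Mrpl16 was at 48.7, 52.9 and 51.9 FPKM in WT JIB-04 and at 65.6, 60.9, 60.1 and 58.0 FPKM in CnATg JIB-04 (0.25, adjusted p = 0.0027), and Mrpl33 at 186, 222 and 208 against 257, 279, 270 and 246 FPKM (0.36, adjusted p = 0.00427). Mrps23, the other gene that rose, was at 155, 162 and 197 against 233, 208, 221 and 199 FPKM (0.33, adjusted p = 0.00896). Its WT and CnATg libraries were apart by little, and at day 45 its difference was 0.19 under vehicle (adjusted p = 0.15) and 0.03 under JIB-04 (adjusted p = 0.827), where the libraries overlapped. With mitochondrial-genome and hemoglobin genes removed, 13 large-subunit genes were higher and 11 lower, and 9 small-subunit genes were higher and 7 lower. Median-ratio scaling gave 3 and 25, and 1 and 14, quantile normalization 2 and 28, and 1 and 14, and scaling to nuclear protein-coding genes 6 and 19, and 1 and 13. Under all 5 scalings 11 large-subunit genes (Mrpl12, Mrpl18, Mrpl23, Mrpl28, Mrpl30, Mrpl37, Mrpl42, Mrpl46, Mrpl48, Mrpl51 and Mrpl55) and 7 small-subunit genes (Mrps11, Mrps15, Mrps21, Mrps24, Mrps33, Mrps35 and Mrps36) were lower.

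**Figure D3:**
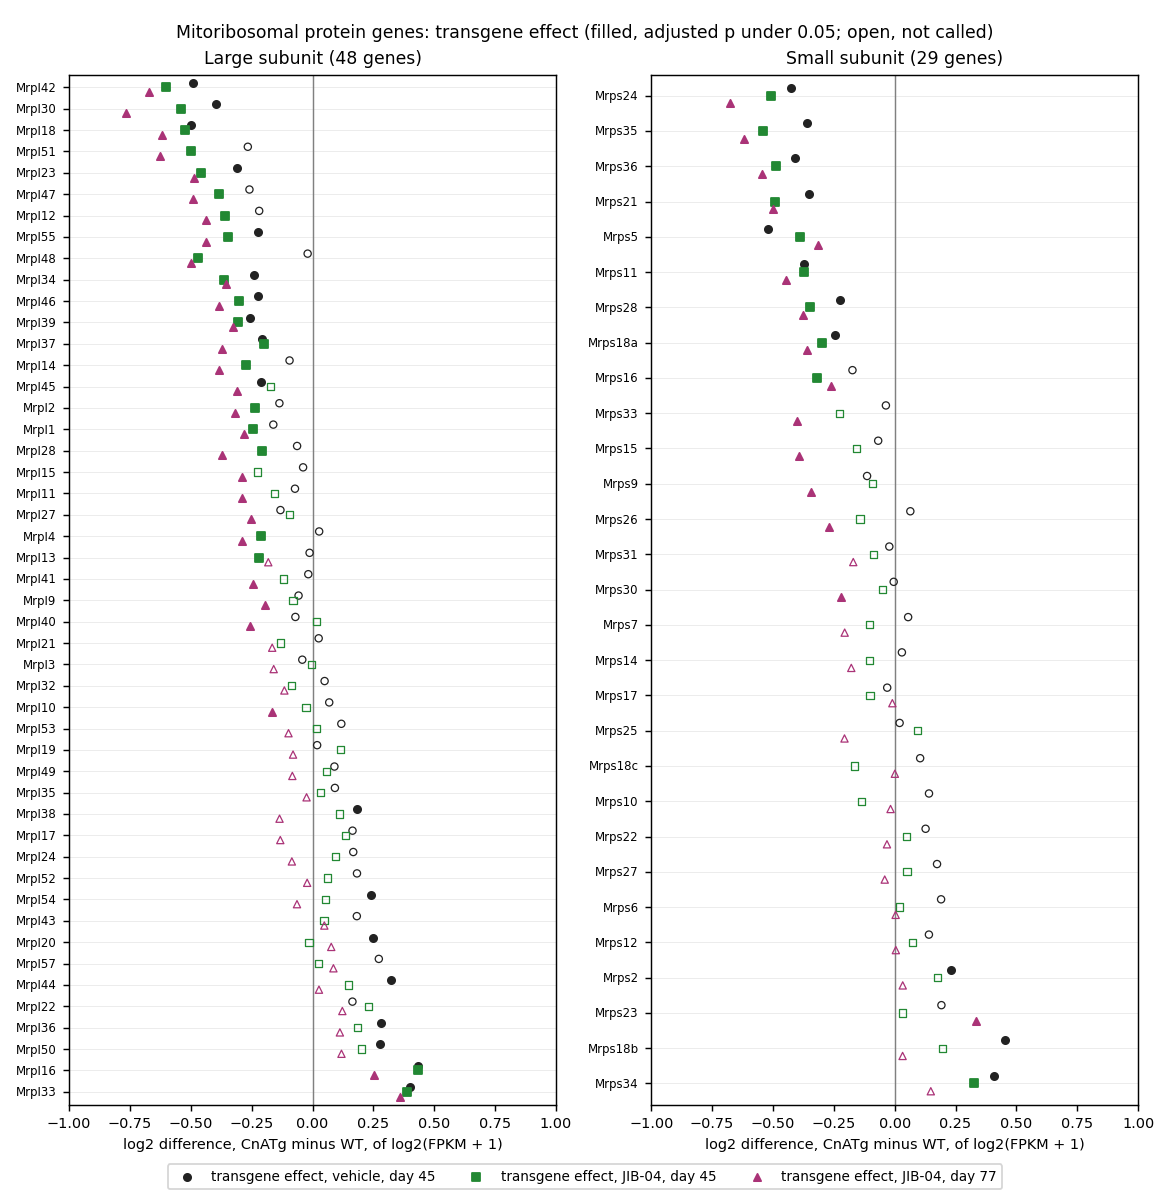
Log2 difference, CnATg minus WT (x axis), of each of the 77 members (rows, by subunit) in the 3 transgene comparisons (markers), filled where the member was called. Mrpl42, at -0.49, -0.60 and -0.67, lies below 0 and Mrpl16, at 0.43, 0.43 and 0.25, above 0 in all 3.

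Across the 3 transgene comparisons, whose groups share no library, 9 large-subunit genes (Mrpl18, Mrpl23, Mrpl30, Mrpl34, Mrpl37, Mrpl39, Mrpl42, Mrpl46 and Mrpl55) and 8 small-subunit genes (Mrps5, Mrps11, Mrps18a, Mrps21, Mrps24, Mrps28, Mrps35 and Mrps36) were called lower in each. The calls of both day-45 comparisons use the same spread, so they are not fully separate. Of 12989 features tested in all 3, 12.5% were called lower in each and 14.1% higher in each. Mrpl16 and Mrpl33 were the members called higher in each, and 0 of the small subunit were. A further 18 large-subunit and 6 small-subunit genes were lower in 1 or 2 comparisons, and 6 and 4 were higher in 1 or 2. The remaining 13 and 11 were called in none. Over all 3 comparisons and all 5 scalings together, Mrpl42 alone was called lower each time and Mrpl16 and Mrpl33 were called higher each time. Whether the transgene effect differed with drug or age was tested by interaction, which called 0 members either between vehicle and JIB-04 at day 45 (0.00753% of all features called; 5 members at an unadjusted p under 0.05, beside 3.75% of features) or between day 45 and day 77 under JIB-04 (0.00729%; 11 members at an unadjusted p under 0.05, beside 6.91%). So 18, 28 and 40 members were lower in turn, while no single member's effect passed a test of the difference between comparisons.

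Because scaling moves all genes together, the members were also read relative to the median of all features. That relative median was -0.09 for the large and -0.07 for the small subunit with vehicle at day 45, -0.13 and -0.12 with JIB-04 at day 45, and -0.22 and -0.20 at day 77. It was below 0 in both subunits in each of the 3 comparisons under every setting tried, scalings and left-out libraries included. Every scaling but quantile normalization divides a library by 1 factor, which moves members and all features nearly alike. For those scalings the sign was thus nearly fixed in advance, and their agreement is no separate support. Proteins with a bacterial counterpart and mitochondrial additions were both represented. Of 29 bacterial-type large-subunit genes 4, 12 and 16 were lower in the 3 comparisons in turn, and of 19 mitochondrial additions 6, 7 and 10. In the small subunit the counts were 5, 6 and 8 of 16, and 2, 2 and 5 of 12. Of the 51 members whose gene overlaps no other coding gene, 13, 19 and 28 were lower and 7, 1 and 2 higher, and of the 26 that overlap one, 5, 9 and 12 were lower and 4, 2 and 1 higher.

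The 3 Mrps18 paralogs, all related to one bacterial protein, differed among themselves. Mrps18c was counted above with the bacterial type and the other 2 with the mitochondrial additions. Mrps18a (chromosome 17, 46110986 to 46128910), which sits in the large subunit, was lower with differences of -0.24, -0.30 and -0.36 (adjusted p = 0.0382, 0.015 and 0.0029). Under vehicle its libraries overlapped, at 66.3, 52.8 and 60.7 FPKM in WT and 49.5, 47.0 and 54.6 FPKM in CnATg. Mrps18b (chromosome 17, 35910379 to 35916389) was higher under vehicle (0.45), and under JIB-04 its differences were 0.20 (adjusted p = 0.159) and 0.03 (adjusted p = 0.741). The day-45 value passed when scaled to nuclear protein-coding genes (0.24, adjusted p = 0.0480) or fitted on the groups compared alone (adjusted p = 0.0294). With mitochondrial-genome and hemoglobin genes removed Mrps18b was called higher in all 3 comparisons, at 0.56, 0.44 and 0.26 (adjusted p = 0.00252, 0.00838 and 0.00945). Its CnATg JIB-04 libraries were at 34.5, 37.1 and 35.2 FPKM at day 45 and its WT JIB-04 libraries at 31.0, 32.0 and 29.8 FPKM, a narrower gap than under vehicle, and the interaction did not pass (-0.26, 95% interval -0.58 to 0.06, limma adjusted p = 0.999). Mrps18c (chromosome 5, 100798627 to 100804471) was not called, at 0.10, -0.16 and 0.00 (adjusted p = 0.236, 0.0691 and 0.996). Its sign turned under quantile normalization with vehicle, with mitochondrial-genome and hemoglobin genes removed under JIB-04 at day 45, and under 5 settings at day 77, and under JIB-04 at day 45 it was called after median-ratio scaling (-0.19, adjusted p = 0.0485) and quantile normalization (-0.21, adjusted p = 0.0242). At day 77 it was called higher with mitochondrial-genome and hemoglobin genes removed (0.23, adjusted p = 0.0105). The vehicle call of Mrps18a was lost without 1 of 4 libraries, CnATg vehicle replicate 1 or 2 (adjusted p 0.0980 and 0.128) and WT vehicle replicate 1 or 3 (0.133 and 0.0966). It was also lost with no filter on low values (0.0743), with the replicate number as a block (0.0517) and in a fit of the groups compared alone (0.0909). With mitochondrial-genome and hemoglobin genes removed, Mrps18a was called in none of the 3 comparisons, at -0.14, -0.05 and -0.13 (adjusted p = 0.285, 0.697 and 0.119). Its day-45 call under JIB-04 was lost without CnATg JIB-04 replicate 3 (0.0509) or WT JIB-04 replicate 2 (0.0573).

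Other gene sets put these differences in scale. Cytosolic ribosomal proteins, which build the ribosomes of the cytoplasm, were 4 higher and 1 lower of 87 with vehicle at day 45 (median 0.07), 2 and 7 of 87 with JIB-04 at day 45 (-0.07), and 3 and 28 of 86 at day 77 (-0.13). Nuclear-encoded subunits of the respiratory chain, the partners of the proteins that mitochondrial ribosomes make, were 2 higher and 62 lower of 80 (-0.30), 0 and 72 (-0.41), and 0 and 74 (-0.50). The mitochondrial ribosomal proteins lay between these sets in each comparison by the share called lower and by median. By genes called higher they did not, with 11, 3 and 3 of 77. The 12 transcripts of the mitochondrial genome were 0 higher and 11, 12 and 12 lower. Of the ribosomal RNAs, mt-Rnr1 averaged 1619 ± 176 FPKM in WT vehicle and 582 ± 22 FPKM in CnATg vehicle at day 45 (SD, n = 3 each; log2 difference -1.47, limma adjusted p = 0.0234), and mt-Rnr2 1630 ± 197 and 799 ± 23 FPKM (-1.02, adjusted p = 0.071). Their deposited values come from a kit that selects mRNA, so they measure what that selection kept. In the groups compared mt-Rnr2 did not overlap, at 1479 to 1852 FPKM in WT vehicle and 777 to 822 FPKM in CnATg vehicle. Both adjusted p use the spread of all 12 libraries of day 45. Among these is WT JIB-04 replicate 2, with mt-Rnr2 at 6548 FPKM beside 1558 and 1772 FPKM in its group.

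**Figure D4:**
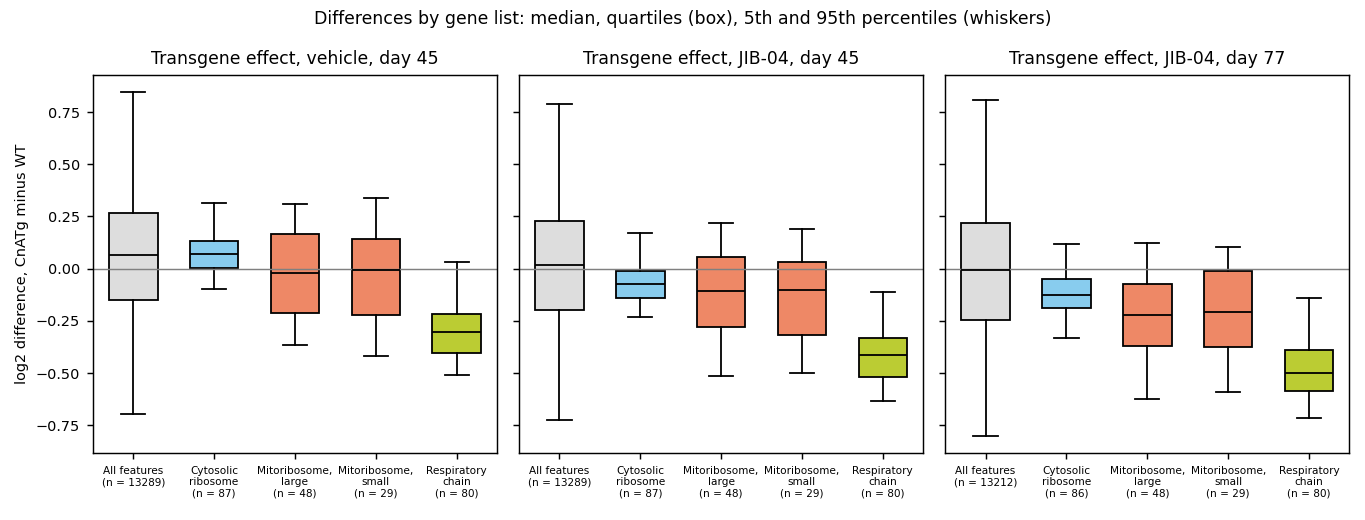
Distribution of log2 differences, CnATg minus WT (y axis), in the 3 transgene comparisons for all features, cytosolic ribosomal proteins, large and small subunit of the mitochondrial ribosome and respiratory chain subunits (x axis), with the median, quartiles and 5th to 95th percentiles. The medians of the respiratory chain, at -0.30, -0.41 and -0.50, lie below those of the large subunit, at -0.02, -0.11 and -0.22.

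Genes that serve the mitochondrial ribosome gave mixed counts. Of 7 ribosomal proteins with other names, 0 were higher and 2, 4 and 5 lower in the 3 comparisons, among them Dap3 of the small subunit (-0.35, -0.39 and -0.52) and Ict1, a release factor built into the large subunit (-0.28, -0.36 and -0.39). Of 22 assembly factors, 4, 2 and 2 were higher and 2, 3 and 8 lower. The small-subunit maturation factor Rbfa was at -0.40, -0.62 and -0.59, whereas the helicase Ddx28 was at 0.52, 0.53 and 0.29 and the ribosomal RNA methyltransferase Nsun4 at 0.50, 0.49 and 0.35. Of 14 translation factors and mRNA-binding proteins, 1, 0 and 1 were higher and 3, 4 and 5 lower. Lrpprc, which stabilises mitochondrial mRNAs, fell by 0.37, 0.39 and 0.64, the elongation factor Tufm by 0.20, 0.27 and 0.52 and the initiation factor Mtif2 by 0.21, 0.24 and 0.42. Of 17 aminoacyl-tRNA synthetases of the organelle, 2, 1 and 0 were higher and 1, 2 and 5 lower. Of 13 genes of mitochondrial transcription and nucleoids, 1, 0 and 0 were higher and 2, 2 and 4 lower. Of 14 transcriptional regulators of mitochondrial genes, 1, 2 and 1 were higher and 2, 3 and 2 lower. Among those the nuclear receptor Esrra was at -0.35, -0.40 and -0.46, and Myc rose by 0.94 and 0.67 at day 45, with 0.40 at day 77, which was not called.

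JIB-04 itself moved no member past the threshold. In CnATg at day 45, 0 of 77 members were called (0.00753% of all features), with 3 at an unadjusted p under 0.05, beside 4.4% of all features. In WT at day 45, 0 were called (0% of all features) and 0 had an unadjusted p under 0.05, beside 4.33%. In CnATg at day 77, 0 were called (0%), and 11 had an unadjusted p under 0.05, beside 7.45%. The 95% interval of a typical member spanned 0.18 each way (log2) at day 45 and 0.14 at day 77. These intervals are not adjusted for the number of features tested, so a call in a typical member needed a larger difference. Even -0.26 in CnATg at day 45 (Mrps10) and -0.23 at day 77 (Mrpl17) did not pass. In CnATg at day 45, 71 of 77 members were below 0, with medians of -0.07 in the large and -0.09 in the small subunit beside -0.03 for all features. At day 77, 65 of 77 were below 0 (medians -0.07 and -0.05, all features -0.03), and these leans kept their sign under the other 4 scalings, with 54 to 68 and 56 to 63 members below 0. In WT at day 45, 50 of 77 were above 0 (0.03 and 0.02, all features 0.00), but 43 and 72 were below 0 when scaled to nuclear protein-coding genes or with mitochondrial-genome and hemoglobin genes removed. On the deposited scale other sets leaned the same way. Cytosolic ribosomal proteins had medians of -0.08 and -0.05 in CnATg at day 45 and day 77, and 0.06 in WT. Respiratory chain subunits had -0.03, -0.06 and 0.08, so the leans were not particular to the members. The difference between CnATg and WT at day 45 was the interaction given above, with 0 members called.

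The members with the smallest p were small changes. In CnATg at day 45 it was Mrps10, a bacterial-type protein of the small-subunit head, at 22.0, 21.6 and 23.4 FPKM with vehicle and 19.7, 17.7 and 17.9 FPKM with JIB-04 (-0.26, limma adjusted p = 0.999). At day 77 it was Mrpl28, at 86.1, 83.0, 84.8 and 87.5 FPKM with vehicle and 78.6, 71.5, 75.4 and 70.7 FPKM with JIB-04 (-0.20, adjusted p = 0.612). The libraries did not overlap in either gene, yet neither passed. In WT it was Mrps26 (0.13, adjusted p = 1), whose libraries overlapped. For Mrpl42 the drug's difference was -0.07 in CnATg at day 45 (95% interval -0.19 to 0.05), 0.04 in WT (-0.08 to 0.16) and -0.07 in CnATg at day 77 (-0.18 to 0.03). For Mrpl16 it was -0.03 (-0.14 to 0.09), -0.02 (-0.14 to 0.09) and -0.09 (-0.19 to 0.02).

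**Figure D5:**
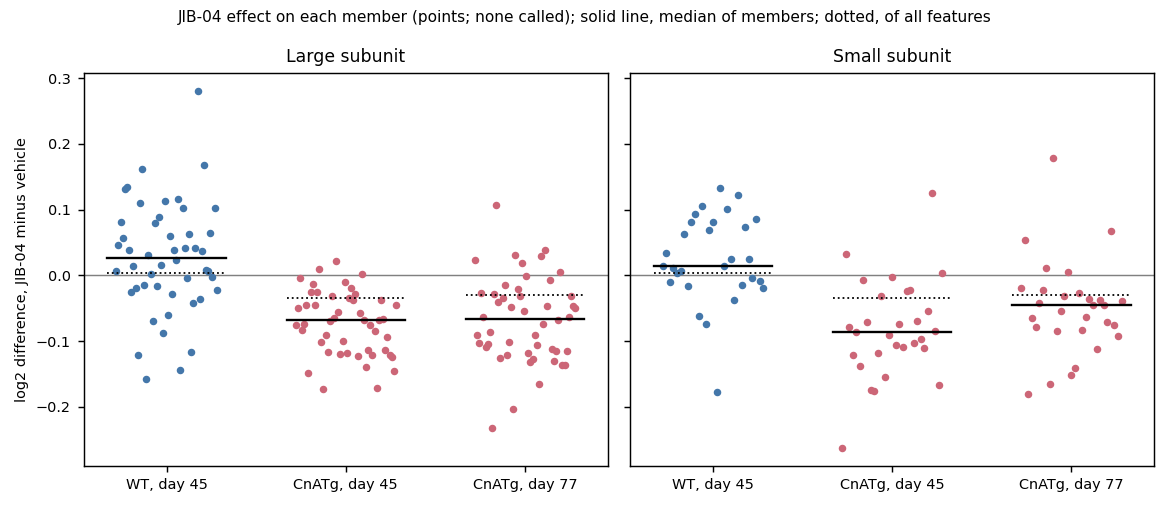
Log2 difference, JIB-04 minus vehicle (y axis), of each member (points) in WT day 45, CnATg day 45 and CnATg day 77 (x axis), by subunit, with the members' median as a solid line and that of all features as a dotted line. Members lean below 0 in CnATg, with 71 and 65 of 77 below 0, and, on the deposited scale but not under every scaling, above 0 in WT, with 50 of 77 above, while 0 members were called in any of the 3.

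Day 77 was set against day 45 within a genotype and treatment. In CnATg, 0 members were called with vehicle (0.0365% of all features; 1 member at an unadjusted p under 0.05, beside 7.26% of features) or with JIB-04 (0.0365%; 2 members, beside 7.85%). The members with the smallest p were Mrps18c with vehicle (-0.23, adjusted p = 0.278) and Mrpl37 with JIB-04 (-0.14, adjusted p = 0.517). In WT with JIB-04, 63 of 77 members were above 0 with a median of 0.07 beside 0.03 for all features (50 to 73 of 77 under the other 4 scalings), and 0 passed (0.328% of all features called; 14 members at an unadjusted p under 0.05, beside 15.1% of features). Mrpl40 was at 25.2, 24.1 and 23.5 FPKM at day 45 and at 28.7, 31.1 and 30.2 FPKM at day 77 (0.29, adjusted p = 0.0550). Mrps15 was at 61.2, 54.8 and 59.6 FPKM at day 45 and 68.6, 74.0 and 69.5 FPKM at day 77 (0.27, adjusted p = 0.0550). The libraries of the ages did not overlap for either gene. With a filter of 5 FPKM in place of 1, both passed (adjusted p = 0.0432 and 0.0457). The summed erythroid markers of these WT libraries were at 1977 to 3398 FPKM at day 45 and at 5055 to 8220 FPKM at day 77, without overlap, and their part in the lean was not tested. The day-77 transgene comparison uses the same WT libraries as its reference.

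Promoter sequence was read for the 68 members (42 large, 26 small) that matched a window of 300 bases around the start in a RefSeq table (build GRCm38.p6, 250 bases before the start). Nuclear genes of mitochondrial proteins often carry sites for NRF1 and for ETS factors such as GABP, and YY1 sites often lie just after the start of housekeeping genes. The letters searched were GCGC, A, any base and GCGC in a row for NRF1, CCGGAAG for ETS and AAGATGGC for YY1. Both strands were read, and a window may hold more than 1. A gene was counted where any of its windows held the letters. Of the members with a window 19.1% held the NRF1 letters, beside 11.4% of the 9361 tested genes with a window and 5.19% of all 27025 genes. For the ETS letters the shares were 36.8%, 19.7% and 9.93%, for the YY1 letters 17.6%, 5.33% and 3.19%, and for any of the 3 they were 61.8%, 32% and 16.4%. Of the 15 members with a window that were lower in all 3 transgene comparisons, 3 held the NRF1, 4 the ETS and 5 the YY1 letters, and 10 held any. Of the 51 called in neither direction in all 3, 10, 20 and 7 did, and 31 held any. The sites below are those of members lower in all 3 comparisons, with Mrpl33, which was higher, for contrast. They are 30 bases of the gene's own strand with the matched letters in capitals.

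Mrpl18, ETS, chr17:12916312-12916341, minus strand: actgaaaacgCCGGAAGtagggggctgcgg
Mrpl34, ETS, chr8:71464878-71464907, plus strand: aactacagctcCCGGAAGgccccgcggcaa
Mrps18a, ETS, chr17:46110967-46110996, plus strand: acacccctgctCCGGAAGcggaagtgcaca
Mrps21, ETS, chr3:95871478-95871507, minus strand: cgtagcttccgCTTCCGGtccgcagagacc
Mrpl30, NRF1, chr1:37890384-37890413, plus strand: tgacgccgctGCGCCTGCGCtgtcttctat
Mrpl39, NRF1, chr16:84735350-84735379, minus strand: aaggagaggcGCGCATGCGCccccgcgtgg
Mrps21, NRF1, chr3:95871586-95871615, minus strand: ggaaagtccaGCGCCTGCGCtcagcaccga
Mrpl37, YY1, chr4:107066822-107066851, minus strand: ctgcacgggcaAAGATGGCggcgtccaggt
Mrpl42, YY1, chr10:95501904-95501933, minus strand: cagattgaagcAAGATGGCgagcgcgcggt
Mrps11, YY1, chr7:78783013-78783042, plus strand: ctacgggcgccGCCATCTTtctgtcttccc
Mrps18a, YY1, chr17:46111004-46111033, plus strand: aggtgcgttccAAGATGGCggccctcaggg
Mrps24, YY1, chr11:5707652-5707681, minus strand: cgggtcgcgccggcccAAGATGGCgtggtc
Mrpl33, ETS, chr5:31613937-31613966, plus strand: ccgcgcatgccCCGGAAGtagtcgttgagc

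Positions are counted from the RefSeq start, which in Mrpl18, Mrpl33, Mrpl39 and Mrps24 lies well inside the annotated gene locus and not at its outer end. In Mrpl42, Mrpl37, Mrps18a and Mrps24 the YY1 letters lie just after the start, centred 30, 30, 14 and 40 bases from it, and in Mrps11 they lie 104 bases before it in reverse complement. In Mrpl30 and Mrps21 the NRF1 letters are in reverse complement, 78 and 86 bases before the start, and in Mrpl39 they read as spelled, 120 bases before it. The ETS letters of Mrpl33 are centred on the start itself, while those of Mrpl18 lie 237 and those of Mrpl34 34 bases before it. Mrpl16, the other member higher in all 3, held none of the 3 in its window. A match is a run of letters and no measurement of binding.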

How the data were processed

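RNA sequencing of mouse hearts gave 23 libraries in 7 groups, taken from the sample labels. Per the labels' protocols, Trizol was used for extraction and a non-directional mRNA kit for the libraries. Per the submitters' processing notes, the tools were Cufflinks 2.2.1, GATK 4.1.2, Picard and STAR 2.7.1a on build GRCm38; their roles and the annotation are not given in the sources used here. The deposited values are log2 FPKM, per the file headers. They start at exactly 0 and were read as log2(FPKM + 1), so the pseudocount is 1, and FPKM was computed back from them. A log2 difference on this scale understates the change of low genes. In 6 files 1 blank line was dropped. The failed estimates of mt-Atp6, mt-Atp8 and mt-Co3, listed at 0 in 13 libraries, were left out.

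Comparisons used limma 3.58.1 in R 4.3.3 (a mean per group, moderated two-sided tests with trended variance) on features that reached 1 FPKM in 3 or more of the fitted libraries, with Benjamini-Hochberg adjustment over all of them and a threshold of 0.05. Each fit held the 12 libraries of day 45, the 11 of day 77, or all 23 for ages and their interaction. The fit was tested on simulated data first. Without read counts the absolute depth is unknown and no counting error is given. Relative depth came from the step sizes of 1649 low features.

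Values in full were given, per transgene comparison and subunit, for up to 5 called members in each direction with the largest difference and groups that do not overlap, for the 3 highest and 3 lowest members by mean level, for the Mrps18 paralogs, for called members against their subunit's majority, and elsewhere for called members or those with the smallest p. Members named beyond that, and the examples from related lists, were chosen after their values were seen. The members and all lists were chosen with earlier results of these data known. From the symbol pattern of cytosolic ribosomal proteins 12 symbols were left out as not ribosomal. Positions come from GENCODE M21, in which all 77 members were found, and 49 had the deposited locus after 1 was added to its start. Alternatives were another pseudocount, other filters, 4 other scalings (scaling to nuclear protein-coding genes was added after seeing the data), a replicate block, a sex term, a fit of the compared groups alone, and leaving out each library. Of the 23 libraries 9 were taken as male, and sex was not balanced in every comparison. At day 77 under JIB-04, the males were WT replicates 1 and 2 and CnATg replicate 1.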

Additional observations from a re-analysis of the deposited data

Results flagged for a closer look

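In groups of 4 libraries, the lowest and the highest value were checked for a gap to the nearest of the others, as a share of the group's range, above Dixon's 95% critical value. Of 88 groups of values 4 held such a value, where chance gives about 1 in 20. Mrpl30 was at 99.99 FPKM in CnATg JIB-04 day 77 replicate 4, with the nearest library at 118.9 FPKM. The summed small subunit was at 1511 FPKM in that library, with the nearest at 1639 FPKM. Mrps24 was at 51.4 FPKM in CnATg vehicle day 77 replicate 2, with the nearest at 56.4 FPKM. The ribosomal RNA mt-Rnr2 was at 758.5 FPKM in CnATg vehicle day 77 replicate 1, with the nearest at 832.5 FPKM.

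Mrps18c was higher in one comparison and lower in another, each time in libraries that did not overlap. All 77 members were searched for this over 6 pairs of effects, and Mrps18c was the only one found. The share of all features that do so was not counted. In CnATg, JIB-04 differed from vehicle by -0.18 at day 45 and by 0.18 at day 77. The same 4 groups gave an age difference of -0.23 with vehicle and 0.12 with JIB-04. The difference between these effects was not tested.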

How the results depend on the processing

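Of the counts of called members, 238 of 245 alternative values stayed within 1.5 times the reported count. That rule ignores direction, and 0 against 0 passed it, as in most settings of the 8 drug, age and difference comparisons. It was also met at day 77 with mitochondrial-genome and hemoglobin genes removed, where most of the members called were higher, as given above. No member was called lower under one scaling and higher under another. With mitochondrial-genome and hemoglobin genes removed, the vehicle day 45 transgene comparison called 11 large and 4 small members, and the JIB-04 day 45 comparison 12 and 4. The reason for the difference from the other scalings was not tested beyond the shares of non-coding RNA and of nuclear copies of mitochondrial sequence given above. Leaving out 1 library gave 12 to 18 and 8 to 12 called with vehicle at day 45, 13 to 19 and 9 to 11 with JIB-04 at day 45, and 23 to 28 and 14 to 16 at day 77. In WT JIB-04 across ages 2 members were called with the filter of 5 FPKM. Of the values of named members, 1204 kept their direction and side of the threshold, 54 lost and 9 gained their call, and 10 changed sign. For Mrps18c these were -0.011 with vehicle at day 45 and -0.012 at day 77 after quantile normalization, 0.083 with JIB-04 at day 45 without mitochondrial-genome and hemoglobin genes, and -0.0077 at day 77 with the replicate block. Leaving out 1 library at day 77 gave -0.042 to 0.037 for Mrps18c (below 0 without CnATg JIB-04 replicate 1 and WT JIB-04 replicates 1 and 3) and -0.0093 to 0.097 for Mrps18b (below 0 without CnATg JIB-04 replicate 2 and WT JIB-04 replicate 2). The drug's difference in WT for Mrpl13 was -0.00059 without mitochondrial-genome and hemoglobin genes. Replicate numbers did not pair libraries (correlations of deviations -0.22 to 0.20). With the number as a replicate block, 19 large and 9 small members were called with vehicle at day 45, 22 and 10 with JIB-04 at day 45, and 24 and 15 at day 77, and 0 in each of the 8 drug, age and difference comparisons. The number of libraries limits the precision, since read depth is unknown.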
